A study of Mus musculus with 12 samples.

Results

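The comparison described here is that of lactoferrin knockout against wild-type mice after LPS (lipopolysaccharide, the outer-membrane glycolipid of Gram-negative bacteria). It uses 6 of the 12 RNA-seq libraries of the series, chosen by their labelled genotype and treatment: 3 labelled lactoferrin knockout with LPS and 3 labelled wild type with LPS. The RNA came from peritoneal lavage cells of C57BL/6J mice. LPS or PBS, the vehicle, was injected into the peritoneal cavity of these mice. The 6 LPS libraries share strain, injection route and cell source, and the labels set the groups apart by genotype alone. The remaining 6 libraries, 3 knockout and 3 wild type with PBS, entered the same statistical fit and are given beside the LPS values as a reference. The dose, the time after injection, the age of the mice and the structure of the knockout allele were not stated in the labels read here. Knockout libraries carry titles that name wild-type mice, but their codes, descriptions and characteristics name the lactoferrin knockout, and grouping followed the latter. Whether each library came from its own mouse is not stated, so the p-values describe spread among libraries, which may be partly technical.

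Lactoferrin is an iron-binding glycoprotein of the transferrin family that is secreted by exocrine glands and stored in the secondary granules of neutrophils. It binds free iron and also binds LPS, and it is counted among the antimicrobial proteins of innate immunity. The resting peritoneal cavity holds resident macrophages, B cells and mast cells. LPS in the cavity is sensed through Cd14, Tlr4 and Ly96, which leads to NF-kB and interferon programmes in macrophages and to the entry of neutrophils from the blood.

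The defining markers of peritoneal macrophages were present in all 6 libraries. The macrophage gene Adgre1, which encodes F4/80, was at 113 to 138 FPKM (fragments scaled by transcript length and library total, the unit the deposited values were taken to be in) in the wild-type LPS libraries and at 124 to 173 FPKM in the knockout LPS libraries. Timd4, a receptor for phosphatidylserine on resident macrophages, was at 78.1 to 145 FPKM and at 72.7 to 76.6 FPKM. Library totals of the 6 LPS libraries lay between 356914 and 388129 FPKM, and 13921 to 14303 genes were above 0. Spearman correlations between libraries were 0.985 to 0.991 within the wild-type LPS group and 0.973 to 0.981 within the knockout LPS group. In the PBS groups, which share the fit and its pooled spread, they were 0.934 to 0.975 in wild type and 0.987 to 0.988 in knockout. Summed erythroid genes, mainly haemoglobin, reached 2241 FPKM in wild-type replicate 2 and 1895 FPKM in knockout replicate 1, against 5.9 to 15.4 FPKM in the other 4 LPS libraries. The gene lists were therefore also counted without that pair of libraries. All 4 Y-linked genes of the list were above the filter and their groups overlapped, with a median difference of -0.11.

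The targeted gene itself was read first. Ltf (chr9:111019271-111042767, plus strand, GRCm38 with the GENCODE vM21 annotation) was at 0.176, 1.33 and 0.275 FPKM in the wild-type LPS libraries and at 0.117, 0.0832 and 0.0699 FPKM in the knockout LPS libraries. The knockout values all lay under the wild-type values, and wild-type replicate 2 was the highest of the 6. The group means were 0.593 ± 0.639 and 0.0899 ± 0.024 FPKM (SD, n = 3). The difference on the log2(FPKM + 1) scale was -0.48, with a two-sided exact permutation p of 0.1, the smallest that 3 against 3 libraries allow, and it was -0.17 without wild-type replicate 2. Under PBS the corresponding values were 1.89, 1.23 and 1.16 FPKM in wild type and 0.183, 0.258 and 0.212 FPKM in knockout, again without overlap. Ltf was under the filter of the genome-wide fit (an average of 1 FPKM or more across all 12 libraries), and its level in both LPS groups was close to the bottom of the measured range. With a pseudocount of 0.1 FPKM in place of 1, the difference was -1.49.

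Across the transcriptome no gene passed the test in the LPS comparison. Of 9841 genes above the filter, limma gave 0 genes an adjusted p under 0.05, and the smallest adjusted p was 0.124. At an unadjusted p under 0.05 there were 744 genes (7.56%), 307 with higher (3.12%) and 437 with lower (4.44%) means in the knockout. Differences are given throughout as knockout minus wild type as log2(FPKM + 1), a scale that shrinks the change of weakly expressed genes, with the standard error of the fit. The median standard error was 0.141. The median difference over all tested genes was -0.04. Differences above 1 were found for 49 genes (0.498%) and differences below -1 for 12 (0.122%), while 12 genes were above 2 and 0 were below -2. The 3 knockout and 3 wild-type LPS libraries did not overlap for 1515 genes (15.4% of those tested), 495 with the knockout libraries higher (5.03%) and 1020 with them lower (10.4%). After rescaling by the median of ratios this split was 687 (6.98%) and 725 (7.37%). The counts of members given below are to be read against these shares.

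The count of 0 depended on knockout replicate 2. Without that library, limma called 29 genes (0.295% of those tested), 26 higher and 3 lower in the knockout, of which 12 were in the neutrophil lists described next and 26 had no overlap over all 6 libraries. Leaving out any other LPS library gave 0 calls. Fitted on the 6 LPS libraries alone, the test called 3 genes, all higher in the knockout: Arg2, the mitochondrial arginase, Cd163, the haemoglobin-haptoglobin scavenger receptor, and Gadd45b, a stress-response gene. Without wild-type PBS replicate 3 the calls were Cd163 and Gadd45b. With no filter on low values they were Hist1h4f and Serpina3i, both lower in the knockout, and Hist1h4f was listed at 0 in all 3 knockout LPS libraries and at 0.234 to 0.265 FPKM in wild type.

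**Figure D1:**
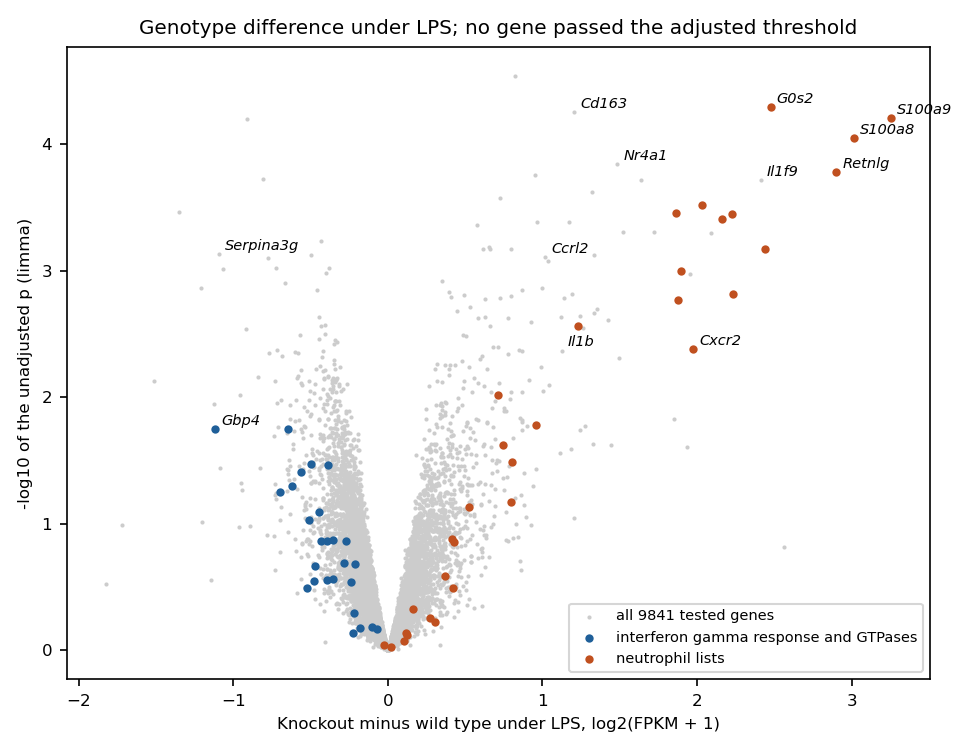
Knockout minus wild-type difference under LPS (horizontal axis, log2 of FPKM + 1) against the -log10 of the unadjusted limma p (vertical axis) for the 9841 tested genes, 1 point per gene. The neutrophil lists reach a difference of 3.25, the interferon gamma list lies below 0, and no gene passed an adjusted p of 0.05.

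The highest differences in the comparison belonged to neutrophil genes. Because the rule for naming genes required a call and none was made, the 12 highest and the 12 lowest genes described below were chosen after their values were seen, from genes averaging 5 FPKM or more in the 6 LPS libraries whose groups were without overlap. Predicted genes, accession-like symbols, immunoglobulin and T cell receptor segments, genes of the mitochondrial genome, Xist and Mx genes were left out. Of the 12 highest, 9 were in the mature neutrophil or neutrophil granule list. Both lists were chosen with earlier results of these data known. In bulk RNA, more cells of a type and more RNA per cell cannot be told apart.

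S100a9 and S100a8 encode the subunits of calprotectin, the calcium- and zinc-binding protein that fills the neutrophil cytosol, and are neighbours on chromosome 3. S100a9 was at 40.7, 80.6 and 109.7 FPKM in wild type and at 1193, 302 and 905 FPKM in knockout. S100a8 was at 51.4, 103 and 116 FPKM in wild type and at 1241, 319.5 and 843 FPKM in knockout. The groups did not overlap for either gene, and knockout replicate 2 was the lowest knockout library for both. The difference of S100a9 was 3.25 ± 0.53 (SE) with an adjusted p of 0.124, and that of S100a8 was 3.02 ± 0.51 with an adjusted p of 0.145 (limma). The ratio of group means was 10.4 for S100a9 and 8.9 for S100a8. Without knockout replicate 2 both were called, at 3.85 (adjusted p = 0.0172) and 3.57 (adjusted p = 0.0176). Under PBS, S100a9 was at 1388, 1159.7 and 792 FPKM in wild type and at 1337, 547 and 551 FPKM in knockout. S100a8 was at 1477, 1224 and 907 FPKM against 1292, 474 and 519 FPKM under PBS. For both genes the wild-type LPS libraries were thus the lowest of the 4 groups.

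Since this pair had the highest differences of the comparison and ranked the libraries of each LPS group in the same order, the 300 bases from 250 before to 50 after the annotated start of each gene are shown, 5′ to 3′ on the strand of the gene, from RefSeq on GRCm38.p6. S100a8 is on the plus strand at chr3:90668821-90669120 and S100a9 on the minus strand at chr3:90695672-90695971. Capitals mark matches on either strand to TATAAA (the TATA box), to TTGCNNAA (a C/EBP-type motif) and to GAGGAA (a PU.1-type ETS core, TTCCTC on the opposite strand).
S100a8: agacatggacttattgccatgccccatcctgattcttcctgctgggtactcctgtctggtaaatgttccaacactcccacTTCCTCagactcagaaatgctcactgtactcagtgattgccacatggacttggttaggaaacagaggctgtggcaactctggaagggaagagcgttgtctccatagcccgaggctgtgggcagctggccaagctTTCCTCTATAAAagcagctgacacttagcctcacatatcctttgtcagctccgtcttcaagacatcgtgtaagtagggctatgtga
S100a9: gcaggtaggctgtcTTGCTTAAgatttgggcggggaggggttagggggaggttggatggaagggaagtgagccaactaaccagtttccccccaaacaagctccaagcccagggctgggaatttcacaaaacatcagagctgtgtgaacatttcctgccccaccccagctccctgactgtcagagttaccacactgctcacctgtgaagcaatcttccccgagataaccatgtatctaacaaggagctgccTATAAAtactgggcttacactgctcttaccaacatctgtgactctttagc
The S100a8 window holds TATAAA starting 30 bases before the start and GAGGAA on the opposite strand starting 170 and 36 bases before it, the latter directly beside the TATA match. The S100a9 window holds TATAAA at base 1 after the annotated start and TTGCTTAA starting 236 bases before it. Among 32851 RefSeq promoter windows of this length, TATAAA was found in 13.6%, TTGCNNAA in 10.8% and GAGGAA in 28.3%. A match describes the letters only, and binding was not measured.

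In the next genes of this group the knockout libraries again lay above all wild-type libraries. Retnlg, a resistin-like secreted protein of neutrophils, was at 6.37, 10.1 and 11.2 FPKM in wild type and at 139.8, 34.5 and 82.4 FPKM in knockout. G0s2, an inhibitor of the triglyceride lipase Pnpla2, was at 1.36, 2.18 and 2.44 FPKM against 27.0, 7.4 and 17.9 FPKM. Neither gene overlapped between the groups, and their differences were 2.90 ± 0.53 (adjusted p = 0.156) and 2.48 ± 0.39 (adjusted p = 0.124, limma). Il1r2, the decoy receptor for IL-1, was at 0.906, 1.29 and 1.61 FPKM in wild type and at 11.4, 3.42 and 9.08 FPKM in knockout. Cxcr2, the receptor for CXCL1 and CXCL2 that drives neutrophil entry into tissue, was at 0.494, 1.04 and 0.851 FPKM against 16.1, 1.87 and 5.97 FPKM. Their differences were 1.87 ± 0.37 and 1.98 ± 0.55, without overlap of the groups. Ly6g, the antigen commonly used to define mouse neutrophils, was at 0, 0 and 0.348 FPKM in wild type and at 2.01, 0.808 and 0.805 FPKM in knockout.

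**Figure D2:**
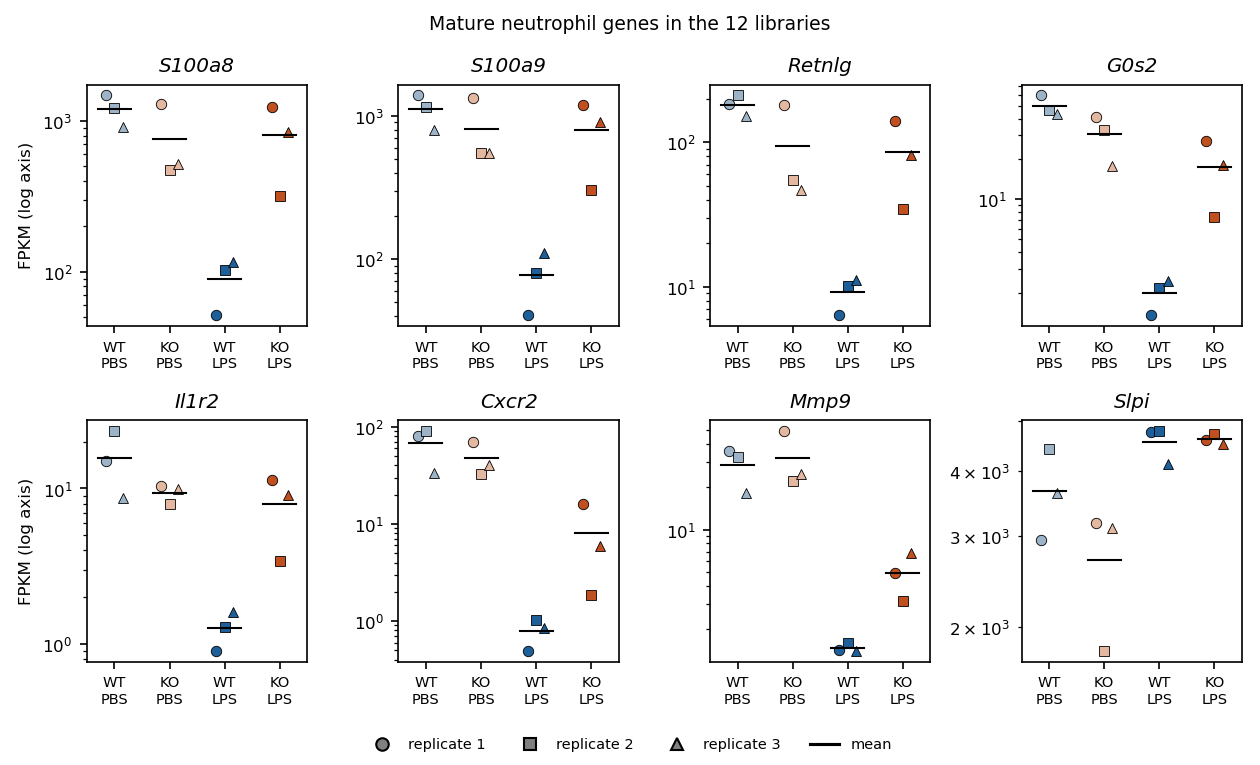
Level in FPKM (log axis) of 8 genes of the mature neutrophil list in each of the 12 libraries, by genotype and treatment, with a marker shape per replicate number and a line at the mean of 3 libraries. In 7 of the 8 genes the knockout LPS libraries lie above all wild-type LPS libraries with knockout replicate 2 the lowest of its group, and Slpi runs from 4138 to 4785 FPKM over the 6 LPS libraries. Other members of the list whose LPS groups overlap are not drawn.

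Collagenase 2 (Mmp8) and gelatinase B (Mmp9), granule proteases of neutrophils, differed by 2.23 and 1.23. Mmp9 was at 1.41, 1.58 and 1.4 FPKM in wild type and at 4.94, 3.12 and 6.86 FPKM in knockout. Chil1, a chitinase-like protein of specific granules, was at 4.27 to 8.06 FPKM in wild type and at 14.5 to 79.8 FPKM in knockout, a difference of 2.44 ± 0.53. The remaining members of the 12 highest were Il1f9, an IL-1 family cytokine (2.41), Mrgpra2b, a G protein-coupled receptor (2.22), Stfa2l1, a stefin A cysteine protease inhibitor whose gene has close copies (2.16), Asprv1, a retroviral-like aspartic protease (2.03), Ifitm1 (1.95) and Apoc1, an apolipoprotein (1.93). In 11 of these 12 genes knockout replicate 2 was the lowest knockout library, the exception being Apoc1, where it was the highest at 36.0 FPKM against 14.6 and 13.6 FPKM. In 11 of the 12 the knockout minus wild-type difference under PBS was below 0, the exception being Ifitm1. Those below 0 ran from -1.21 ± 0.53 for Retnlg to -0.03 ± 0.53 for Chil1. The smallest adjusted p of the 12 under PBS was 0.496, for Mrgpra2b (limma).

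As a list, the mature neutrophil genes had the highest median of the 41 lists with at least 3 tested members. The lists were chosen with earlier results of these data known. The rank and the counts that follow therefore describe the list and are no test of it. All 23 listed genes passed the filter and had a difference above 0. In 15 of the 23 the groups did not overlap, with the knockout higher, and in 0 with it lower, beside 5.03% and 10.4% of all tested genes. None was called. The differences ran from 0.02 for Slpi, a protease inhibitor also made by macrophages, to 3.25 for S100a9. Beside Slpi, the groups overlapped for Csf3r (0.42), Trem1 (0.42), Trem3 (0.8), Cd177 (0.8), Pglyrp1 (0.53), Padi4 (0.12) and Clec4e (0.12). Trem1 was at 21.5, 21.6 and 22.1 FPKM in wild type and at 49.8, 12.1 and 41.8 FPKM in knockout. The list median was 0.96 against -0.04 for all tested genes, and 1.63 with a pseudocount of 0.1 FPKM. The mean log2(FPKM + 1) over the list was 3.68, 3.87 and 3.86 in the wild-type LPS libraries and 5.63, 4.49 and 5.39 in the knockout LPS libraries. Knockout replicate 2 was the lowest knockout library in 20 of the 23 genes, and without it 20 of the 23 were without overlap, beside 13.3% of all genes on the higher side in that setting. Leaving out the lowest knockout library favours such separation, so this rise is no further support. Without the 2 libraries rich in haemoglobin RNA the count was 15 (beside 17.4% of all genes), as it was after rescaling by the median of ratios (6.98%) or the upper quartile (6.45%). The summed level of the list was dominated by Slpi, and without Slpi it was 845, 842 and 836 FPKM in wild type and 3647, 1413 and 2919 FPKM in knockout. Under PBS the list median was -0.46 and the mean log2 level was 6.36, 6.45 and 5.73 in wild type and 6.28, 5.51 and 5.64 in knockout, so that the list mean was lowest in the wild-type LPS libraries. This did not hold for each member: Slpi averaged 4563 FPKM in wild-type LPS and 2697 FPKM in knockout PBS libraries.

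The neutrophil granule list, which holds Ltf itself, had 9 of 16 genes above the filter. Of these 9, 3 (Chil1, Olfm4 and Ngp) were without overlap, all higher in the knockout, beside 5.03% of all genes. Ngp, a cathelicidin-related granule protein, was at 1.69, 8.12 and 4.55 FPKM in wild type and at 22.2, 8.2 and 30.8 FPKM in knockout. The groups were thus separated by knockout replicate 2 at 8.2 FPKM and wild-type replicate 2 at 8.12 FPKM. The list median was 0.31. Its most abundant members overlapped between the groups: Lyz2, the lysozyme shared by macrophages and neutrophils, was at 6067 ± 1301 and 7779.8 ± 1158 FPKM, and Lcn2, which binds bacterial siderophores, at 1496 ± 325 and 1966 ± 928 FPKM (mean ± SD, n = 3). Of the lactoferrin-binding proteins reported in the literature, 5 of 7 were tested and Cd14 alone was without overlap, with a list median of 0.32.

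Markers of other cell types had lower medians than the mature neutrophil list. Their counts without overlap stand beside 5.03% of all genes higher and 10.4% lower. The monocyte list (11 of 14 tested) had a median of 0.36, with 2 members without overlap, Chil3 among them, both higher in the knockout. Chil3, a chitinase-like lectin of monocytes and alternatively activated macrophages, was at 14.2, 11.7 and 13.4 FPKM in wild type and at 46.6, 18.4 and 141 FPKM in knockout, whereas the monocyte genes Ms4a4c (55.1 ± 1.94 and 50.7 ± 9.34 FPKM) and Ly6c2 (12.7 ± 2.05 and 17.7 ± 7.09 FPKM) overlapped. The large peritoneal macrophage list (25 of 25 tested) had a median of 0.03, with Cxcl13 and Saa3 higher and Timd4 lower without overlap. Without its most abundant gene, Saa3, its summed level was 5368 to 7053 FPKM in wild type and 6734 to 7346 FPKM in knockout. The dendritic cell list (6 of 12 tested) had a median of -0.02, with Itgax lower without overlap.

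Of 11 tested mast cell genes (13 listed), 10 had differences below 0. In 7 of the 11 the groups were without overlap with the knockout lower and in 1, Hdc, with it higher, beside 10.4% and 5.03% of all genes, and none was called. Cpa3, the mast cell carboxypeptidase, was at 146, 144 and 145 FPKM in wild type and at 97.3, 100.5 and 98.0 FPKM in knockout, a difference of -0.55 ± 0.35 with an adjusted p of 0.726 (limma). The spread within each LPS group was small, while under PBS Cpa3 ran from 49.4 to 154 FPKM in wild type and from 90.2 to 182 FPKM in knockout, and the fit pools the spread of all 4 groups. The tryptase gene Tpsb2 was at 187, 184 and 166 FPKM against 103, 128 and 111 FPKM, and the chymase gene Cma1 at 239.5 ± 12.0 against 169 ± 7.88 FPKM. Kit, the stem cell factor receptor, was at 6.87 to 7.97 FPKM and at 5.65 to 5.82 FPKM. Hdc, which makes histamine and is also expressed by neutrophils, was at 95.0, 95.8 and 100.5 FPKM in wild type and at 160.4, 126 and 122 FPKM in knockout. The list median was -0.37 under LPS and 0.37 under PBS.

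Lymphocyte markers lay on the lower side with few separations, to be read beside 10.4% of all genes lower and 5.03% higher without overlap. The B cell list (20 tested) had a median of -0.22 and Cd22 and Vpreb3 lower without overlap. Cd22, an inhibitory coreceptor of B cells, was at 36.8, 29.5 and 45.2 FPKM against 26.5, 27.5 and 16.5 FPKM. The T cell list (12 of 18 tested) had a median of -0.24 with all 12 differences below 0 and Tcf7 and Cd2 without overlap. Its summed level was 35.6 to 41.2 FPKM in wild type and 19.4 to 37.3 FPKM in knockout, with knockout replicate 3 the lowest. The natural killer cell list (10 of 14 tested) had a median of -0.17, with Klrk1, the activating receptor NKG2D, lower (3.55, 2.37 and 3.96 FPKM against 1.89, 1.98 and 0.987 FPKM) and Klrb1c higher. Stromal (4 of 7 tested, median -0.39), eosinophil (2 of 8, median -0.16, Epx at 0 in all 6 libraries), mesothelial (1 of 8, 0.08), platelet (2 of 8, 0.43) and erythroid genes (6 of 13, -0.01) were mostly under the filter, and of these Pf4 alone was without overlap. The part of neutrophil, mast cell or lymphocyte RNA in the differences described next was not tested.

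**Figure D3:**
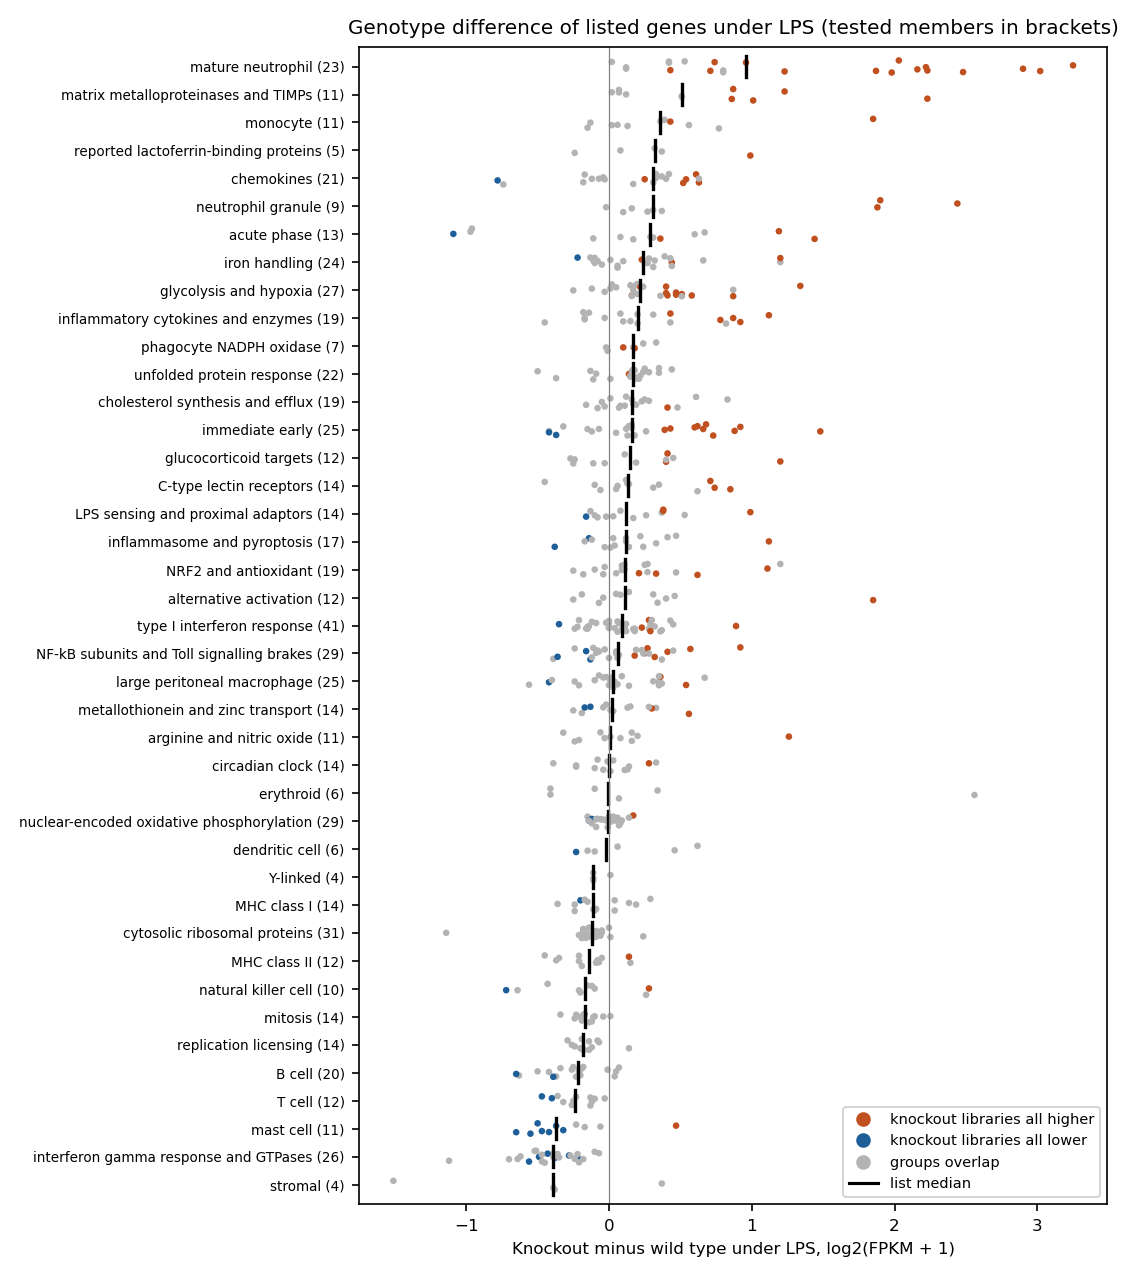
Knockout minus wild-type difference under LPS (log2 of FPKM + 1) of each tested gene in the 41 lists with at least 3 tested members, ordered by the list median (black bar). Coloured points are genes whose knockout and wild-type LPS libraries do not overlap. The mature neutrophil list has the highest median, 0.96, and the stromal and interferon gamma lists share the lowest, -0.39.

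The receptors that sense LPS were not uniform. Of 14 tested genes of LPS sensing and its proximal adaptors, 3 were without overlap on the higher side and 1, Irak1, on the lower, with a median of 0.12. The shares were 21.4% and 7.14%, beside 5.03% and 10.4% of all genes. Cd14, the coreceptor that hands LPS to the Tlr4 complex and a reported lactoferrin-binding protein, was at 694, 588 and 496 FPKM in wild type and at 1297, 1323 and 928 FPKM in knockout. All knockout libraries were above all wild-type libraries, and the difference was 0.99 ± 0.29 with an adjusted p of 0.499 (limma). Ly96, which encodes MD-2, was at 28.1 ± 5.86 against 36.7 ± 5.91 FPKM, and the kinase gene Irak2 at 30.4 ± 1.5 against 40 ± 1.83 FPKM (SD, n = 3). Tlr4 was at 6.80, 5.91 and 5.97 FPKM in wild type and at 10.4, 5.50 and 9.80 FPKM in knockout, with knockout replicate 2 under the wild-type libraries. The adaptor gene Myd88 was at 103 ± 7.92 and 105 ± 5.79 FPKM.

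Among 19 tested inflammatory cytokines and enzymes, 5 (26.3%) were without overlap, all higher in the knockout (Il1b, Il1rn, Osm, Csf1 and Ebi3), beside 5.03% of all genes. The median was 0.20. Il1b was at 54.7, 111 and 73.2 FPKM in wild type and at 145, 143 and 226 FPKM in knockout. Il1rn, the antagonist of the same receptor, was at 324, 262 and 301 FPKM against 739, 506 and 469.9 FPKM. The agonist and the antagonist were both higher in every knockout LPS library, with differences of 1.12 ± 0.32 and 0.92 ± 0.24 and adjusted p of 0.455 and 0.349 (limma). Under PBS the order of Il1b was reversed, at 174, 149 and 99.3 FPKM in wild type and 91.2, 57.6 and 47.0 FPKM in knockout. The PBS differences were -1.12 ± 0.32 for Il1b and -0.32 ± 0.24 for Il1rn. For Il1b the LPS difference minus the PBS difference was 2.24, with an adjusted p of 0.124 (limma). Osm, oncostatin M, was at 11.7 ± 2.77 against 22.4 ± 6.5 FPKM, and Csf1, the macrophage growth factor, at 7.78 ± 0.273 against 14.4 ± 4.03 FPKM. Tnf (30.4, 61.4 and 28.0 FPKM against 44.8, 65.3 and 102 FPKM), Il6 (245, 359 and 114 FPKM against 300.3, 117 and 215 FPKM) and Csf3 (41.6, 53.2 and 33.9 FPKM against 49.6, 47.6 and 62.0 FPKM) overlapped. The difference of Il6 was -0.14 ± 0.64, so that its sign is not determined.

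Of 21 tested chemokines, 5 were higher (23.8%) and 1 lower (4.76%) without overlap, beside 5.03% and 10.4% of all genes, and the median was 0.31. The listed Cxcr2 ligands all had differences above 0: Cxcl1 0.17, Cxcl2 0.4, Cxcl3 0.63 and Cxcl5 0.63. Of these, Cxcl3 alone was without overlap, at 356, 387 and 301 FPKM in wild type and at 631, 409 and 600.1 FPKM in knockout. Cxcl1 was at 752 ± 307 and 819 ± 165 FPKM and Cxcl2 at 859 ± 233 and 1128 ± 277 FPKM. Ccl4, a macrophage inflammatory protein gene, was at 373, 400.2 and 302 FPKM against 534, 560.5 and 539 FPKM. Cxcl13, the B cell attractant made by resident peritoneal macrophages, was at 1896 ± 295 against 2760 ± 416 FPKM, and Pf4, a chemokine of platelets and macrophages, at 1058 ± 147 against 1514 ± 203 FPKM. The difference of Cxcl13 was 0.54 under LPS and 1.67 under PBS, and that of Pf4 was 0.52 and -0.05. Ccl12, a monocyte attractant, was on the lower side at 18.4, 18.6 and 15.7 FPKM against 9.05, 11 and 9.51 FPKM, a difference of -0.78 ± 0.17 with an adjusted p of 0.217 (limma).

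Among 29 NF-kB subunits and brakes of Toll signalling, 7 were higher (24.1%) and 3 lower (10.3%) without overlap, with a median of 0.06. The shares of all genes were 5.03% and 10.4%. After rescaling by the median of ratios the counts were 6 and 1, beside 6.98% and 7.37% of all genes. Beside Il1rn, the higher group held the inhibitor Nfkbia (434 ± 26.8 against 492 ± 40.4 FPKM) and Zfp36, which destabilises cytokine mRNA (233 ± 18.1 against 311 ± 14.2 FPKM). Gadd45b, which was called with the 6 LPS libraries alone, was at 47.4, 49.1 and 50.5 FPKM against 103, 102 and 91.4 FPKM, and had an adjusted p of 0.281 in the fit of 12 libraries.

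Interferon gamma response genes and GTPases had lower means in the knockout. Of 29 listed genes, 26 were tested and all 26 had differences below 0, with a median of -0.39, and 6 were without overlap (Gbp2, Gbp3, Igtp, Gbp7, Irgm2 and Gbp2b), beside 10.4% of all genes with the knockout lower. None was called. The guanylate-binding protein gene Gbp2 was at 235, 272 and 301 FPKM in wild type and at 179, 220.4 and 149.8 FPKM in knockout, a difference of -0.56 ± 0.24. Gbp4 was at 14.6, 16.4 and 27.6 FPKM against 6.13, 16.2 and 5.22 FPKM, and Ifi47 at 206, 243 and 252 FPKM against 192, 262 and 159 FPKM. In each of these genes knockout replicate 2 was the highest knockout library. The mean log2(FPKM + 1) over the list was 5.24, 5.26 and 5.43 in wild type and 4.73, 5.33 and 4.68 in knockout. Without knockout replicate 2, 24 of the 26 genes were without overlap, beside 19.5% of all tested genes in that setting. Leaving out the knockout library highest in this list favours such separation, so the count is no further support. Knockout replicate 2 was thus the library nearest to wild type in both the neutrophil and the interferon gamma list. Guanylate-binding protein genes are close copies of each other and reads may have been divided among them.

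Cxcl10, a chemokine induced by interferons, followed the interferon gamma genes at 1275, 1109 and 1319 FPKM in wild type and 526, 1373 and 555 FPKM in knockout. The type I interferon list was split. Of its 41 tested genes, 28 had differences above 0, and the median was 0.09. Without overlap, 4 were higher (Ifit3b, Oas3, Oas1a and Oasl2) and 1 lower (Ifi44), beside 5.03% and 10.4% of all genes. Isg15, a ubiquitin-like modifier, was at 488 ± 30.7 and 498 ± 119 FPKM, and Ifitm3 at 1534 ± 213 and 1878 ± 323 FPKM. MHC class I (14 tested, median -0.11, H2-M3 lower without overlap) and class II (12 tested, median -0.14, Ctss higher) genes overlapped otherwise, with B2m at 2959.8 ± 159.6 and 3049 ± 148 FPKM and Cd74 at 1887 ± 319 and 1505 ± 402 FPKM. Nos2, the inducible nitric oxide synthase, was at 121, 109 and 90.2 FPKM in wild type and at 68.7, 149 and 109 FPKM in knockout, with a difference of -0.03 ± 0.31 that changed sign with rescaling.

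**Figure D4:**
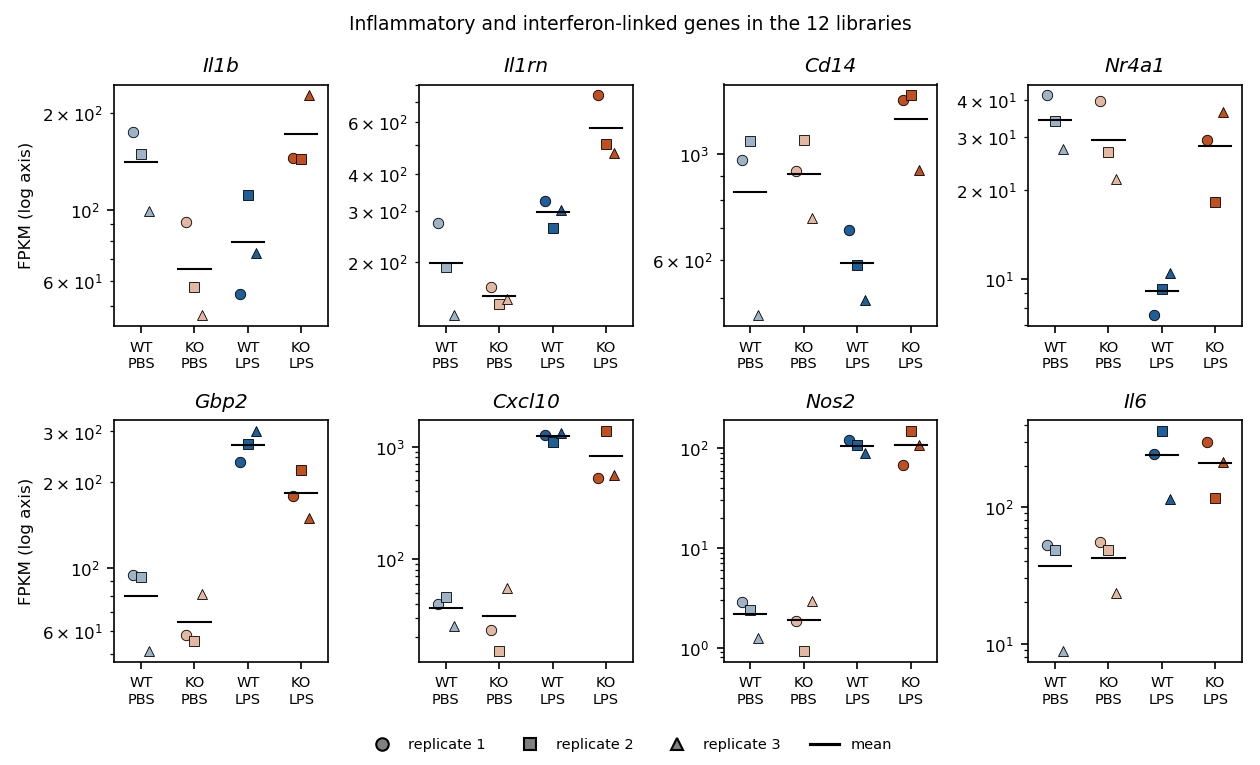
Level in FPKM (log axis) of 8 inflammatory and interferon-linked genes in each of the 12 libraries, with a marker shape per replicate number and a line at the mean of 3 libraries. Under LPS, Il1b, Il1rn, Cd14 and Nr4a1 lie higher in all 3 knockout libraries, Gbp2 lies lower in all 3, and Cxcl10, Nos2 and Il6 overlap.

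Immediate early genes, which are transcribed within minutes of a stimulus, had a median of 0.16. Of 25 tested members, 10 were without overlap on the higher side and 2, Cited2 and Klf6, on the lower. These counts stand beside 5.03% of all genes higher and 10.4% lower without overlap. Nr4a1, an orphan nuclear receptor, was at 7.55, 9.25 and 10.5 FPKM in wild type and at 29.4, 18.2 and 36.6 FPKM in knockout, a difference of 1.48 ± 0.27 with an adjusted p of 0.156 (limma) and of 0.0208 without knockout replicate 2. Fos was at 4.59, 4.40 and 4.42 FPKM against 9.75, 6.59 and 11.5 FPKM. Egr1, a zinc-finger transcription factor, was at 8.98, 9.98 and 8.95 FPKM against 13.8, 13.9 and 18.6 FPKM, and Btg2, an antiproliferative gene, at 24.8 ± 1.52 against 38.8 ± 5.58 FPKM. Ier3 was at 215 ± 66.8 against 336 ± 55.1 FPKM and Klf2, the most abundant member, at 282 ± 21.3 and 323 ± 88.2 FPKM with overlap.

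Genes of glycolysis and of the hypoxia response had 11 of 27 tested members (40.7%) without overlap, all higher in the knockout, beside 5.03% of all genes. Of the 27 differences, 24 were above 0, and the median was 0.22. Egln3, a prolyl hydroxylase that marks hypoxia-inducible factors for degradation, was at 2.29, 1.11 and 3.64 FPKM in wild type and at 10.4, 4.87 and 6.78 FPKM in knockout, a difference of 1.34 ± 0.29 with an adjusted p of 0.217 (limma). Bnip3, a mitophagy receptor, was at 16.8 ± 3.25 against 32.0 ± 9.95 FPKM. The glucose transporter gene Slc2a1 was at 46.0 ± 5.43 against 65.8 ± 6.48 FPKM and Vegfa at 2.02 ± 0.318 against 3.57 ± 0.915 FPKM. The most abundant glycolytic genes overlapped, with Ldha at 628 ± 53.5 and 703 ± 67.4 FPKM and Pkm at 382 ± 43.5 and 393 ± 13.2 FPKM.

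Iron-handling genes, the class closest to the biochemical role of lactoferrin, had 3 of 24 tested members without overlap on the higher side and 1, Slc22a17, on the lower, with a median of 0.24. The shares were 12.5% and 4.17%, beside 5.03% and 10.4% of all genes. Cd163 was at 0.913, 0.75 and 0.492 FPKM in wild type and at 3.45, 2.76 and 2.65 FPKM in knockout, a difference of 1.20 ± 0.19 with an adjusted p of 0.124, and it was among the genes called with the 6 LPS libraries alone. Slc40a1, the iron exporter ferroportin, was at 0.111, 0.0805 and 0.204 FPKM against 0.759, 0.355 and 0.504 FPKM, without overlap but near the bottom of the range in both groups. Fth1, the ferritin heavy chain, was at 9572 ± 1575 and 12560.3 ± 2102 FPKM, and Hmox1, which degrades haem, at 142, 175 and 113 FPKM against 896, 165 and 235 FPKM. Both overlapped, and the highest Hmox1 value was in knockout replicate 1. That library and wild-type replicate 2 were the pair rich in haemoglobin RNA, whose part in the Hmox1 values was not tested.

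Secreted effectors gave further separations, to be read beside 5.03% of all genes higher and 10.4% lower without overlap. Acute phase genes (13 tested, median 0.29) had 3 serum amyloid genes on the higher side without overlap and Serpina3g on the lower. Saa1 was at 79.5, 92.8 and 33.5 FPKM against 185, 119 and 234 FPKM, and Saa3, the form made by macrophages, at 18281, 18444 and 13064 FPKM against 18533, 19584 and 25739 FPKM. Under PBS Saa1 was also without overlap, at 21.6, 5.91 and 3.13 FPKM in wild type and at 24.9, 38.4 and 22.8 FPKM in knockout. The differences of Saa1, Saa2 and Saa3 were 1.44, 1.19 and 0.36 under LPS and 1.75, 1.43 and 0.87 under PBS. Saa1 and Saa2 are close copies of each other. Metalloproteinases and their inhibitors (11 tested, median 0.51) had all 11 differences above 0 and 5 without overlap (Mmp8, Mmp9, Mmp25, Adam8 and Mmp19), the first pair of which are also in the mature neutrophil list, while Timp1 (63.5 ± 22.5 and 92.9 ± 39.7 FPKM) and Mmp14 (63.0 ± 16.4 and 70.2 ± 36.3 FPKM) overlapped. C-type lectin receptors (14 tested, median 0.13) had Clec7a, Clec4d and Clec4n higher. Clec7a, the beta-glucan receptor Dectin-1, was at 2.72, 1.52 and 2.78 FPKM against 8.30, 3.33 and 4.18 FPKM. Metallothioneins and zinc transporters (14 tested, median 0.02) had 2 members higher and 2 lower, with Mt1 at 716, 536 and 484 FPKM against 765, 929 and 837 FPKM. In the arginine and nitric oxide list (11 tested, median 0.01) Arg2 alone was without overlap, at 10.4, 9.85 and 8.90 FPKM against 28.9, 24.6 and 21.3 FPKM.

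The remaining lists had 0 to 4 separated members each. NRF2 and antioxidant genes had 4 of 19 members (21.1%) higher without overlap (median 0.11), glucocorticoid targets 3 of 12 (25.0%, median 0.15) and phagocyte NADPH oxidase genes 2 of 7 (28.6%, median 0.17), beside 5.03% of all genes. Inflammasome genes had 1 of 17 higher and 2 lower (median 0.12), and alternative activation genes 1 of 12 higher (median 0.11). Cholesterol genes (1 of 19, median 0.16), the unfolded protein response (1 of 22, median 0.17) and the circadian clock (1 of 14) had single members on the higher side. Replication licensing (0 of 14, median -0.18), mitosis (1 of 14 lower, median -0.17), cytosolic ribosomal proteins (0 of 31, median -0.12) and oxidative phosphorylation (1 of 29 higher and 3 lower, median -0.01) completed the lists. No member of any list was called in the LPS comparison.

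Several of these counts moved when libraries were left out, which leaves fewer values to overlap. Without the 2 libraries rich in haemoglobin RNA, 17.4% of all tested genes were without overlap on the higher side and 23% on the lower. In that setting the unfolded protein response had 14 of 22 members on the higher side, against 1 with all 6 libraries, and inflammatory cytokines and enzymes had 11 of 19, against 5. Chemokines had 10 of 21 on the higher side, type I interferon genes 11 of 41 and genes of glycolysis and hypoxia 17 of 27. On the lower side the B cell list had 8 of 20, the T cell list 6 of 12, the interferon gamma list 9 of 26 and the mast cell list 7 of 11. Without knockout replicate 2 (beside 13.3% higher and 19.5% lower of all genes), iron-handling genes had 10 of 24 members on the higher side, NRF2 and antioxidant genes 9 of 19, LPS sensing genes 7 of 14 and the unfolded protein response 3 of 22. In the same setting MHC class I had 7 of 14 and MHC class II 6 of 12 members on the lower side.

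The 12 lowest genes, taken from those averaging 5 FPKM or more without overlap with the same symbols left out, belonged to no single list. Among them Cirbp, a cold-inducible RNA-binding protein, had the lowest difference, at 23.5, 13.4 and 27.0 FPKM in wild type against 12.4, 7.99 and 6.88 FPKM in knockout, a difference of -1.13 ± 0.37. Serpina3g, a serine protease inhibitor of leukocytes that belongs to a cluster of close copies, was at 143, 149 and 195 FPKM against 69.0, 88.6 and 68.8 FPKM (-1.09 ± 0.24, adjusted p = 0.217, limma). Glipr1 (-1.06), the deubiquitinase gene Otud1 (-0.96), Ccl12 (-0.78), Phip (-0.77), the p53 target Pmaip1 (-0.74), Bckdhb of branched-chain amino acid breakdown (-0.73), Fgl2 (-0.72), the thymine-DNA glycosylase gene Tdg (-0.72), the activation marker Cd69 (-0.70) and the integrin gene Itga4 (-0.67) made up the rest. In 8 of these 12 genes the difference under PBS was below 0 as well. Serpina3g was at 27.3, 43.2 and 21.8 FPKM in wild type and 11.6, 9.54 and 15.5 FPKM in knockout under PBS, and Ccl12 at 4.24, 5.33 and 2.78 FPKM against 1.36, 1.64 and 2.07 FPKM, both without overlap in either treatment.

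The genes around Ltf on chromosome 9 were described separately, as neighbours of the targeted locus. Within 1000 kb on either side, 15 genes were tested and none was called, with a median difference of -0.08. The groups did not overlap for 3 genes on the higher side (Ngp, Ccrl2 and Epm2aip1) and 2 on the lower, Dhx30 among them, beside 5.03% and 10.4% of all genes. Epm2aip1 was at 5.45, 5.78 and 5.12 FPKM against 5.85, 8.08 and 7.85 FPKM. Ccrl2, a chemerin-binding receptor 11.7 kb from Ltf, was at 47.0, 40.6 and 54.8 FPKM in wild type and at 85.9, 110 and 94.5 FPKM in knockout, a difference of 1.02 ± 0.22 under LPS and 0.58 under PBS.

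The genotype differences under LPS were set beside those under PBS, which share no library with them. Under PBS 11 genes were called (0.112%), 2 higher (0.0203%) and 9 lower (0.0915%) in the knockout, a count that ran from 0, without knockout PBS replicate 2 or 3, to 39, without wild-type PBS replicate 1. The test of the difference between the treatments, the interaction, called 4 genes (0.0406%), all with the genotype difference higher under LPS: Egr1, Egr2, Hbegf and Csrnp1. Egr1 was at 27.8, 23 and 25.5 FPKM in wild type and 14.5, 14.0 and 10.4 FPKM in knockout under PBS, the reverse of its order under LPS. Hbegf, an EGF receptor ligand, was at 2.48, 1.66 and 1.88 FPKM against 0.495, 0.566 and 0.553 FPKM under PBS and at 1.59, 1.73 and 1.38 FPKM against 2.04, 2.86 and 2.52 FPKM under LPS. Egr2 and Csrnp1 overlapped under LPS and were lower in all knockout libraries under PBS. Under LPS Egr2 was near the bottom of the range, at 0.403 to 0.462 FPKM in wild type and 0.45 to 0.665 FPKM in knockout. Its PBS levels were 4.82 to 6.26 FPKM and 1.35 to 2.31 FPKM. With the replicate number as a block the interaction called 0 genes. It also called 0 without any of wild-type PBS replicate 1, the 3 wild-type LPS libraries, knockout PBS replicates 2 and 3 or knockout LPS replicates 1 and 3, and it called 11, 36 and 49 without knockout PBS replicate 1, knockout LPS replicate 2 and wild-type PBS replicate 3. For the mature neutrophil list the interaction was above 0 in 21 of 23 genes and called in 0, with an adjusted p of 0.106 for S100a8 and 0.114 for S100a9 (limma). The LPS differences, all above 0 in this list, enter the interaction, and the members share libraries. The count of signs is therefore no separate support. Over the 9841 genes the differences under LPS and PBS had a Pearson r of -0.065 and a Spearman rho of -0.049, given as a description across genes, which are not independent replicates.

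**Figure D5:**
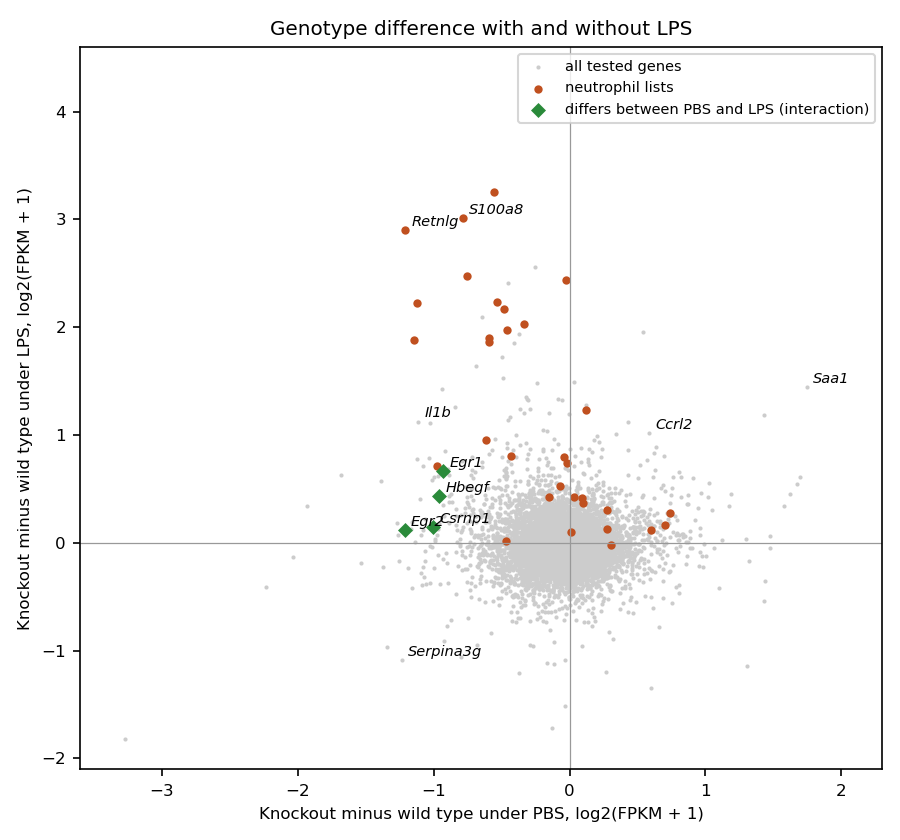
Knockout minus wild-type difference under PBS (horizontal axis) and under LPS (vertical axis), log2 of FPKM + 1, for the 9841 tested genes. The 4 interaction genes lie left of 0 and slightly above it, and S100a8 lies at -0.79 and 3.02.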

How the data were processed

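RNA of peritoneal lavage cells was sequenced in 12 libraries. The authors deposited 1 table per library with gene symbols and values in a unit the tables do not name. They were taken as FPKM because they are not whole numbers and because, per the submitters' processing notes, Cufflinks was used, beside TopHat, HTSeq, DESeq and the GRCm38 build, whose roles and versions are not given there. Each table has 21878 rows, of which 27 whose symbol had become a date were left out.

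Groups follow the characteristics. Genes averaging 1 FPKM or more over the 12 libraries (9841) were fitted as log2(FPKM + 1) with limma 3.58.1 in R 4.3.3 (empirical Bayes with trend and robust settings, 8 residual degrees of freedom, Benjamini-Hochberg adjustment over all tested genes, threshold 0.05, two-sided), with contrasts for the genotype difference under LPS, under PBS and their difference. Ltf was given an exact permutation test. The procedure was tested on simulated data. FPKM hold no counts, so depth is unknown. From the spacing of low values, the other LPS libraries had 0.982 to 1.05 times the depth of wild-type LPS replicate 1, although at most 17.0% of the compared values fell within 1% of the commonest ratio, so no reads were recovered.

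The comparison and the 44 gene lists (742 genes, 735 in the files, 630 tested) were chosen with earlier results of these data known. The naming rule took Ltf, called genes and, in lists without calls, the 2 members of highest level, which are given for the lists described at length. All other named genes were chosen after their values were seen. Positions are from GENCODE vM21 (97.0% of tested genes matched), promoters from RefSeq. Alternatives were other pseudocounts, filters, scalings, variance settings, a replicate block, subsets and each library left out. Some items are not reported here.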

Additional observations from a re-analysis of the deposited data

Results flagged for a closer look

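For 4 genes the knockout minus wild-type difference under LPS differed from that under PBS by the interaction term of the limma fit, with the difference higher under LPS in each. The interaction was 1.59 for Egr1 and 1.39 for Hbegf (adjusted p = 0.0344 for both, limma), and 1.33 for Egr2 and 1.15 for Csrnp1 (adjusted p = 0.0446 for both). Under PBS all 4 were lower in every knockout library and passed the test (Egr1 -0.93, Hbegf -0.96, Egr2 -1.21 and Csrnp1 -1.01). Under LPS their differences were 0.66, 0.43, 0.12 and 0.14, and none passed. Egr2 was at 0.403 to 0.665 FPKM under LPS, a level at which log2(FPKM + 1) shrinks differences.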

How the results depend on the processing

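In the LPS comparison, 0 genes were called with a pseudocount of 0.1, a filter at 5 FPKM, either rescaling, plain variance settings, and without the 2 libraries rich in haemoglobin RNA, while 2 were called with no filter and 3 with the 6 LPS libraries alone. Leaving out 1 library gave 0 to 29 calls. The interaction (4 calls, all higher under LPS) gave 1 with a filter at 5 FPKM, 1 with no filter, which was lower under LPS and so none of the 4, 8 and 12 with median-of-ratios and upper-quartile scaling, 7 with plain variance settings, 0 without the haemoglobin pair and 0 to 49 with 1 library left out. The PBS comparison (11 calls) gave 4 with a filter at 5 FPKM, 0 with the 6 PBS libraries alone, 0 without the haemoglobin pair and 0 to 39 with 1 library left out. The causes of these changes were not tested. The haemoglobin setting was added after the data were seen.

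Same-numbered libraries did not deviate together under LPS (correlations of -0.10, 0.09 and -0.25), and correlations under PBS were 0.14, 0.08 and 0.10, so the numbers were not taken to pair them. With the replicate number as a block, the LPS comparison called 0 genes (2 with the 6 LPS libraries alone), the interaction 0 and the PBS comparison 3.

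The mature neutrophil median was 1.63 with a pseudocount of 0.1. Of 320 recomputed list medians, 18 moved by more than the spread. Of 139 named genes, these had differences that took the other sign in some setting. Nos2 was at 0.01 and 0.00 with median-of-ratios and upper-quartile scaling, 0.28 without the haemoglobin pair and -0.29 to 0.26 with 1 library left out. Isg15 was at -0.03 without the haemoglobin pair and -0.16 to 0.20 with 1 left out. With 1 left out the ranges were -0.59 to 0.23 for Il6, -0.03 to 0.49 for Cxcl1, -0.04 to 0.36 for Klf2, -0.32 to 0.31 for Mmp14, -0.26 to 0.01 for Ms4a4c, -0.01 to 0.09 for Myd88, -0.05 to 0.10 for Pkm and -0.05 to 0.05 for Slpi.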

Other observations

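Several genes outside the lists also had groups without overlap under LPS, and were chosen here after their values were seen. Smox, the spermine oxidase, was at 2.40, 2.33 and 3.15 FPKM in wild type and at 16.2, 7.57 and 8.68 FPKM in knockout, a difference of 1.64 ± 0.30 with an adjusted p of 0.156 (limma). Mxd1, a repressor in the Myc network, was at 16.8, 16.6 and 18.5 FPKM against 65.9, 35.1 and 59.1 FPKM, and Cd300lf, an inhibitory receptor of myeloid cells, at 7.58, 9.68 and 10.2 FPKM against 25.9, 18.2 and 21.6 FPKM. Nfe2, a transcription factor, was at 1.33, 1.95 and 2.27 FPKM against 8.96, 2.61 and 6.48 FPKM, with knockout replicate 2 again the lowest knockout library.

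Clec12b, an inhibitory C-type lectin receptor, was at 2.85, 2.97 and 2.99 FPKM in wild type and at 0.982, 0 and 0.869 FPKM in knockout, a difference of -1.35 ± 0.27 with an adjusted p of 0.192 (limma). Under PBS its highest value was 1.4 FPKM, in a knockout library. Rbm3, the cold-inducible relative of Cirbp, was lower in every knockout LPS library as well, at 104, 99.5 and 118 FPKM against 78.1, 75.9 and 54.6 FPKM (-0.63 ± 0.22). Under PBS neither Rbm3 nor Cirbp was separated between the genotypes. Il22, an epithelial-acting cytokine, was listed at 0 in all 6 PBS libraries and was at 2.65, 3.32 and 3.56 FPKM in wild type and 1.19, 5.42 and 0.735 FPKM in knockout under LPS, where knockout replicate 2 was the highest of the 6.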
